A study of Mus musculus with 8 samples.

Results

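The comparison set mouse embryonic stem cells with an altered 3′ untranslated region (3′UTR) of Mbnl1 against the line they share their background with. Its members were chosen by genotype label: the 4 libraries of the mutant and of wild type, out of 8 in all, and every gene that passed a filter on low counts. The mutant carries the allele Mbnl1 3′UTR(mut) on both copies of the gene; no source used here gives the altered bases. The other groups of the series are a TRIM71-/- knockout and a line with a stable transfection of MBNL1 joined by T2A to puromycin resistance, called overexpression below. Wild type has none of these changes. All 4 groups, wild type included, share the 129xC57BL/6 background and carry Cre-ERT2 and BirA-V5 at Rosa26, and all were grown on gelatin with serum and LIF. Each group has 2 libraries of total RNA, read as paired ends of 75 nt. The labels do not say whether libraries came from separate cultures or clones, so p-values measure the spread between these libraries only, and the altered 3′UTR and clone-to-clone variation cannot be told apart.

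MBNL1 is an RNA-binding protein that controls alternative splicing, mostly known from muscle and brain, where it favours the exon choices of mature tissue. TRIM71 is an RNA-binding protein of early embryonic cells that lowers the level or translation of mRNAs it binds, often through hairpins in their 3′UTR, and the series title names Mbnl1 as a gene it represses. Embryonic stem cells kept in LIF, a cytokine that acts through the kinase JAK and the factor STAT3, express a network of pluripotency factors. Cultures in serum also hold cells with early marks of other fates, such as primitive endoderm, the layer that lays down basement membrane next to the early embryo.

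Levels are counts per 1000000 (CPM) after TMM scaling, and each list of values gives replicate 1 before replicate 2. Mbnl1 (ENSMUSG00000027763.9, mm10 chromosome 3, 60472830 to 60629750, on the plus strand) had 28.6 and 27.4 CPM in the mutant libraries and 25.9 and 26.1 CPM in the wild-type libraries. Both mutant libraries lay above both wild-type libraries, but the log2 change of 0.11 (SE 0.0415) did not pass (adjusted p = 0.0935, edgeR's quasi-likelihood test with Benjamini-Hochberg adjustment, used for every adjusted p below). Mbnl1 was lower in the mutant than in the knockout, which had 48.8 and 50.9 CPM (log2 change -0.83, adjusted p = 3.96e-10). It was also lower than in overexpression, with 193 and 195 CPM (log2 change -2.79, adjusted p = 1.16e-15), where reads of the transgene and of the gene itself cannot be told apart. Counts per gene say nothing of MBNL1 protein or of exon use. Trim71 stood at 695 and 694 CPM in the mutant and 629.9 and 628 CPM in wild type, a rise of 1.10-fold (adjusted p = 0.00832). The knockout libraries had 101.2 and 105 CPM of Trim71, and the overexpression libraries 644 and 667 CPM; the labels do not say which bases the knockout lacks. Of the relatives of Mbnl1, Mbnl2 had 70.9 and 58.4 CPM in the mutant and 65.1 and 66.2 CPM in wild type (adjusted p = 0.908), and Mbnl3 had 6.82 and 6.95 CPM in the mutant and 6.37 and 5.99 CPM in wild type (adjusted p = 0.250). Within 1 Mb of Mbnl1, 2 of 10 genes tested changed, with Mbnl1 itself counted among the 10, a share near the 15.5% over all genes. Rap2b, a small GTPase gene, fell to 16.6 and 17.5 CPM in the mutant, against 18.7 and 20.02 CPM in wild type (log2 change -0.19, adjusted p = 0.0372), a call lost without wild-type replicate 2, mutant replicate 1 or any 1 library of the other lines (adjusted p = 0.0544 to 0.227). Aadac, which encodes a lipid deacetylase, had 0.206 and 0.133 CPM in the mutant and 0.418 and 0.424 CPM in wild type (log2 change -1.31, adjusted p = 0.0110), a call lost without mutant replicate 2 or either wild-type library (adjusted p = 0.0507 to 0.0791).

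Of 18055 genes tested, 2802 (15.5%) changed at an adjusted p under 0.05: 1448 (8.02%) were higher and 1354 (7.5%) lower in the mutant. Most changes were small. At 2-fold or more 31 genes (0.172%) were higher and 251 (1.39%) lower. Most of these falls were in genes of low level: 190 of the 251 averaged under 1 CPM over the 4 libraries, and above 100 CPM no gene changed by that much in either direction. Genes tested that averaged under 0.2 CPM had a median log2 change of -0.14, those over 100 CPM one of 0.04, and all genes tested one of -0.01. The share of calls depended on level too. Over 100 CPM 20.5% of genes were higher and 4.10% lower, and under 1 CPM 0.818% were higher and 4.70% lower. The shares of gene lists below are set against all genes, not against genes of like level. Read counts from 1 locus resembling ribosomal RNA, Gm26917, took 1.997% and 2.39% of the mutant libraries and 4.46% and 2.62% of the wild-type libraries, so wild-type replicate 1 stands apart in this measure. Without that library 1768 genes changed, 786 of them lower, and 185 changed by 2-fold or more, with the lone wild-type library assumed to vary like the other groups. Totals were 84387771 and 83859784 counts in the mutant and 80640117 and 75056306 in wild type, and a count of 3, the floor used here, equals 0.0356 to 0.0400 CPM.

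**Figure D1:**
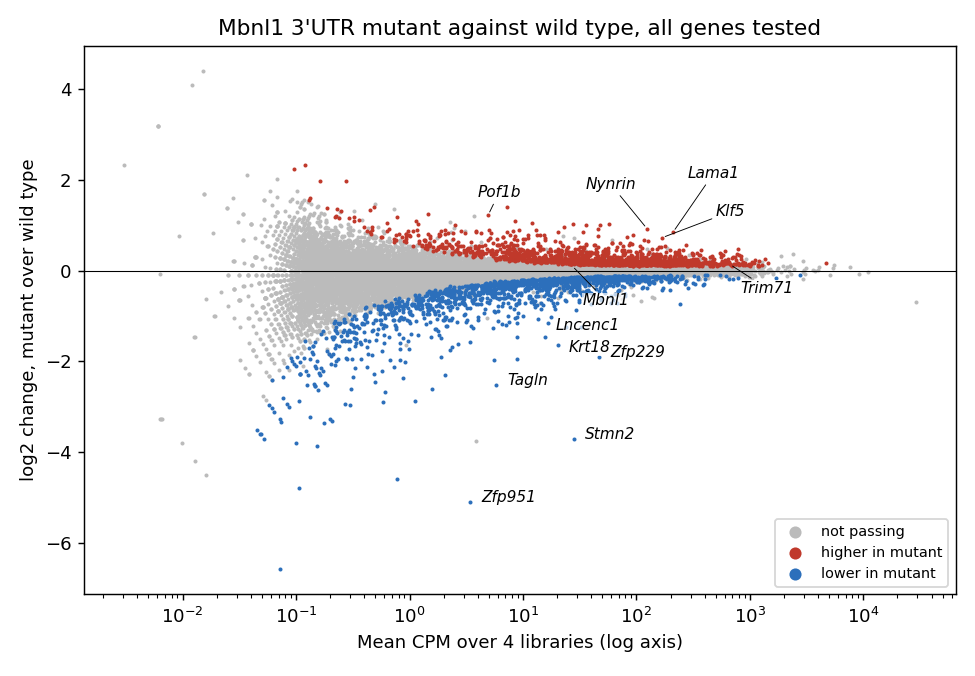
Log2 change of each gene tested in the mutant over wild type (vertical) against its mean CPM over the 4 libraries (horizontal, log axis). Grey points did not pass, red points were higher and blue points lower in the mutant at an adjusted p under 0.05. Of the labelled genes Zfp951 and Stmn2 lie lowest, at -5.10 and -3.70, and Pof1b highest, at 1.22.

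The cells carried the markers of embryonic stem cells, and the sum of their levels was higher in the mutant. All 9 markers of that list exceeded 1 CPM in all 4 libraries, and their summed level was 5303 and 5275 CPM in the mutant and 4752 and 4712 CPM in wild type. Of 8 fibroblast markers 6 stayed under 1 CPM in all 4 libraries and Lum had no count (sums 5.55 and 5.25 CPM in the mutant, 4.93 and 5.29 CPM in wild type). All 4 blood markers stayed under 1 CPM. In bulk RNA, fewer cells of a type and less RNA per cell cannot be told apart, and this holds for every marker below.

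Stmn2, a gene of neurons, and Tagln and Thbs1, from a list of actin cytoskeleton genes, were among the named falls. Stmn2 (ENSMUSG00000027500.10, chromosome 3, 8509360 to 8561606), which encodes the microtubule regulator stathmin-2 of growing neurons, had 4.15 and 3.90 CPM in the mutant and 50.97 and 54.0 CPM in wild type, a fall of 13.04-fold (SE 0.0658 on the log2 scale, adjusted p = 2.2e-14). The overexpression libraries, at 5.68 and 6.47 CPM, were near the mutant, and the knockout libraries, at 49.9 and 48.6 CPM, near wild type. The mutant differed from both: the log2 change was -3.61 against the knockout (adjusted p = 1.05e-14) and -0.59 against overexpression (adjusted p = 1.41e-05). The neuronal list as a whole changed in both directions, with a median of 0.04. Of 34 genes 7 were higher (20.6%, against 8.02% of all genes) and 9 lower (26.5%, against 7.5%). DESeq2 called 7 higher and 5 lower. Nes, an intermediate filament gene of neural progenitors, fell by 0.54 on the log2 scale (adjusted p = 4.05e-05), whereas Mapt, which encodes the microtubule-binding protein tau, was higher by 0.45 (adjusted p = 3.78e-05), as was Ncam1, a cell adhesion gene, by 0.61 (adjusted p = 6.75e-06). Pou4f2, a neuronal transcription factor gene, rose to 63.9 and 56.5 CPM in the mutant, against 33.2 and 30.3 CPM in wild type (adjusted p = 2.52e-06).

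In the list of actin cytoskeleton genes and targets of the factors SRF and YAP, 18 of 53 genes tested were lower (33.96%, against 7.5% of all genes) and 6 higher (11.3%, against 8.02%), with a median of -0.10. The higher members numbered 3 without wild-type replicate 2, 3 without mutant replicate 1 and 3 with library size as the only scaling, but 9 without mutant replicate 2. Tagln, which encodes the smooth muscle actin-binding protein transgelin, had 1.62 and 1.83 CPM in the mutant and 9.17 and 10.6 CPM in wild type (log2 change -2.52, SE 0.104, adjusted p = 7.93e-10). Thbs1, the gene of the secreted matrix protein thrombospondin 1, had 3.75 and 3.64 CPM in the mutant and 13.3 and 15.1 CPM in wild type (log2 change -1.94, adjusted p = 1.16e-09). For both genes the libraries of a group were close together. Both were named for the size of their fall, so the gap between groups follows in part from that choice. Tagln stood at 1.61 and 1.81 CPM in overexpression, from which the mutant did not differ (log2 change 0.02, SE 0.139, adjusted p = 0.932), and at 12.5 and 12.8 CPM in the knockout, from which it did (adjusted p = 1.38e-11). Thbs1 had 4.20 and 3.95 CPM in overexpression (adjusted p of the difference from the mutant = 0.243) and 14.7 and 13.6 CPM in the knockout (adjusted p = 1.17e-10). Further falls included Cnn2, which encodes the actin-binding protein calponin 2, at 13.6 and 14.1 CPM in the mutant and 25.2 and 24.4 CPM in wild type (adjusted p = 9.39e-08). Tpm1, a tropomyosin gene, had 53.4 and 49.4 CPM in the mutant and 84.0 and 85.0 CPM in wild type (adjusted p = 5.31e-08), and Ccn1, a matricellular YAP target, 13.4 and 14.4 CPM in the mutant and 25.4 and 21.9 CPM in wild type (adjusted p = 2.18e-06). The muscle actin gene Acta1 was low in every library, at 0.193 and 0.0849 CPM in the mutant and 0.887 and 1.19 CPM in wild type (log2 change -2.88, adjusted p = 4.93e-05). The main cellular actins were not called: Actb had 4096 and 3916 CPM in the mutant and 4062 and 3846 CPM in wild type (adjusted p = 0.787), and Actg1 a log2 change of 0.04 (adjusted p = 0.5004). Against the direction of the list, Wwtr1, which encodes the YAP relative TAZ, rose to 51.9 and 48.6 CPM in the mutant, against 33.7 and 33.9 CPM in wild type (adjusted p = 4.12e-07). Tead4, which encodes a DNA-binding partner of YAP, was higher by 0.37 as log2 (adjusted p = 0.000105). Summed smooth muscle markers (4 genes, Tagln among them) stood at 2.36 and 3.29 CPM in the mutant and 11.5 and 13.1 CPM in wild type, and 2 of them stayed under 1 CPM in all 4 libraries. Tagln was the only 1 of the 4 that was called and made up most of the wild-type sum. The fall of the sum thus mostly repeats that of a gene named for its size of change.

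**Figure D2:**
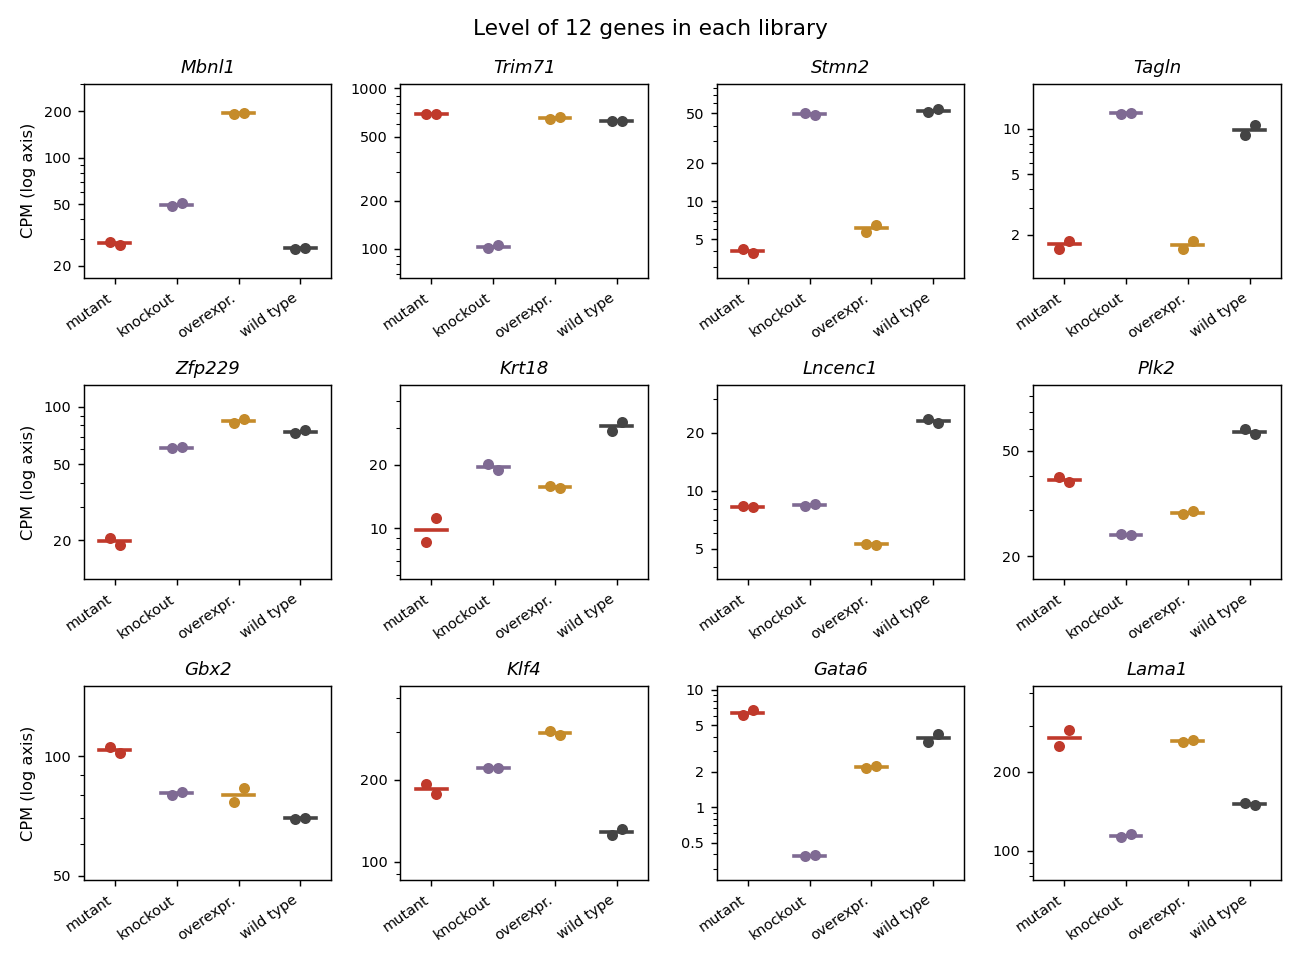
Level in CPM (log axis) of 12 named genes in every library, with the mutant at the left, then knockout and overexpression, and wild type at the right. Each point is 1 library and each bar the mean of the 2 libraries of a group. Stmn2 and Tagln are low in the mutant and in overexpression, while Zfp229 is low in the mutant, at 20.5 and 18.8 CPM, against 72.7 and 75.4 CPM in wild type.

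The lists of simple epithelia and of trophoblast, the outer lineage of the early embryo, held more falls than rises. Of 31 epithelial genes tested 15 fell (48.4%, against 7.5% of all genes) and 2 rose, or 4 without wild-type replicate 2 (median -0.16), and of 17 trophoblast genes 9 fell (52.9%) and 1 rose (median -0.50); Krt7, Krt8 and Krt18 belong to both lists. Krt18 and Krt8 encode the keratin pair of simple epithelia. Krt18 had 8.57 and 11.1 CPM in the mutant and 29.02 and 32.1 CPM in wild type (log2 change -1.63, SE 0.102, adjusted p = 7.39e-06). Krt8 had 27.3 and 32.8 CPM in the mutant and 51.3 and 48.4 CPM in wild type (log2 change -0.73, adjusted p = 1.78e-05). In both keratins the mutant was also below overexpression (adjusted p = 0.000578 for Krt18 and 6.46e-06 for Krt8) and below the knockout (adjusted p = 4.78e-05 for Krt18 and 0.000318 for Krt8). Krt7, a further keratin of this kind, had 0.157 and 0.170 CPM in the mutant and 1.19 and 0.915 CPM in wild type (adjusted p = 1.27e-05). Plac8, first described in placenta, fell 3.91-fold to 2.12 and 2.42 CPM in the mutant, against 9.01 and 8.77 CPM in wild type (adjusted p = 3.05e-09). Tfap2c, a trophoblast and germ cell transcription factor gene, had 18.8 and 17.6 CPM in the mutant and 29.8 and 27.03 CPM in wild type (adjusted p = 2.52e-06). Eomes, a T-box factor gene of the trophoblast lineage, did not pass, at 3.78 and 3.504 CPM in the mutant and 3.32 and 3.54 CPM in wild type. Of the epithelial genes, Fermt1, which encodes the integrin activator kindlin-1, fell 3.06-fold (adjusted p = 1.95e-07). Prom1, which encodes a protein of membrane protrusions, fell 2.41-fold (adjusted p = 2.79e-06), and the claudin genes Cldn6, Cldn4 and Cldn7 of tight junctions fell 1.501-, 1.38- and 1.53-fold (adjusted p = 1.8e-06, 6.9e-06 and 0.000165). Cdh1, the gene of E-cadherin, did not pass, at 333 and 322 CPM in the mutant and 373 and 336 CPM in wild type (adjusted p = 0.101); without wild-type replicate 2 it was called lower (adjusted p = 0.00926). Tjp1 and Jup, which encode a tight junction scaffold and plakoglobin, were higher, by 0.25 and 0.24 on the log2 scale (adjusted p = 0.000185 and 0.00105). The summed trophoblast markers stood at 40.3 and 48.1 CPM in the mutant and 85.7 and 86.0 CPM in wild type, of which the keratins made up the largest share. Of the 6 markers tested 3 were lower, namely Krt7, Krt8 and Krt18, and 0 higher, so the fall of the sum repeats that of the keratins. Elf5, a defining factor of trophoblast stem cells, had no count in the 4 libraries.

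The lists of the LIF pathway and of naive pluripotency, the state of the preimplantation embryo, held more rises than falls in the mutant. In the LIF list 11 of 21 genes rose (52.4%, against 8.02% of all genes) and 1 fell (median 0.19). In the naive list 12 of 25 rose (48%) and 3 fell, while the rest did not pass (median 0.11); Klf4, Klf5, Gbx2, Tfcp2l1 and Stat3 belong to both. Among receptors, Lifr, which binds LIF, had 161 and 158 CPM in the mutant and 114 and 115 CPM in wild type (log2 change 0.47, SE 0.0334, adjusted p = 2.03e-07). Il6st, the gp130 chain shared with it, had 98.8 and 98.2 CPM in the mutant and 81.5 and 85.5 CPM in wild type (adjusted p = 0.000355). Inside the cell, Stat3 had 164 and 164 CPM in the mutant and 148 and 140.5 CPM in wild type (adjusted p = 0.00289), and Socs3, a target of STAT3 that inhibits the receptor, 169.6 and 165 CPM in the mutant and 131 and 131 CPM in wild type (adjusted p = 4.12e-06). Jak1 did not pass, with a log2 change of 0.02 (adjusted p = 0.757). The kinase gene Pim1 was the fall of the list, at 104 and 96.9 CPM in the mutant and 126 and 133 CPM in wild type (adjusted p = 7.46e-05).

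Among the transcription factors that act below LIF, Klf5 had 227 and 190.0 CPM in the mutant and 122 and 131 CPM in wild type (log2 change 0.72, SE 0.0923, adjusted p = 0.00368). Klf4 had 192 and 177 CPM in the mutant and 125 and 132 CPM in wild type (log2 change 0.52, adjusted p = 8.61e-07), and Gbx2 105 and 102 CPM in the mutant and 69.6 and 70.02 CPM in wild type (log2 change 0.57, adjusted p = 3.28e-07). Tbx3, a T-box factor of the same network, rose 1.46-fold (adjusted p = 4.82e-07). In each of these 4 genes both mutant libraries were above both wild-type libraries. Gbx2 was higher in the mutant than in any other group: the log2 change was 0.36 against the knockout (adjusted p = 4.84e-06) and 0.38 against overexpression (adjusted p = 2.65e-06). Klf4 was lower in the mutant than in both, by 0.26 against the knockout (adjusted p = 0.000140) and 0.68 against overexpression (adjusted p = 4.48e-09). The core factors moved little. Nanog had 344 and 332 CPM in the mutant and 318 and 307 CPM in wild type (adjusted p = 0.0348), a call lost without wild-type replicate 2, mutant replicate 1, either knockout library or overexpression replicate 2 (adjusted p = 0.0544 to 0.192). Pou5f1, the gene of OCT4, had 1223 and 1263 CPM in the mutant and 1165 and 1153 CPM in wild type (adjusted p = 0.0464), a call lost when any library but mutant replicate 1 was left out (adjusted p = 0.0505 to 0.159). Esrrb, a nuclear receptor gene of the same network, rose 1.12-fold (adjusted p = 0.00232). Klf2 did not pass (log2 change -0.01, adjusted p = 0.885).

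Genes of the formative and primed states, which follow naive pluripotency at implantation, changed in both directions (median -0.18). Of 24 tested 9 fell (37.5%, against 7.5% of all genes) and 8 rose (33.3%, against 8.02%). Otx2, a head and epiblast homeobox gene, had 13.8 and 12.1 CPM in the mutant and 20.8 and 19.5 CPM in wild type (adjusted p = 2.28e-05). Pim2, a kinase gene, had 6.06 and 7.37 CPM in the mutant and 14.4 and 12.2 CPM in wild type (adjusted p = 1.38e-05). Zic2 and Zic5, zinc finger factor genes, fell by 0.74 and 0.72 on the log2 scale (adjusted p = 0.000207 and 8.12e-05), and Dnmt3b, a de novo DNA methyltransferase gene, by 0.24 (adjusted p = 0.000200). In the other direction Foxd3 had 39.0 and 34.98 CPM in the mutant and 25.1 and 22.4 CPM in wild type (adjusted p = 6.75e-06), and Tcf15 75.4 and 72.6 CPM in the mutant and 46.4 and 50.05 CPM in wild type (adjusted p = 1.76e-07). Both encode transcription factors of the exit from the naive state. Of 33 long noncoding RNAs, many of them known from embryonic stem cells, 10 fell and 0 rose, and 6 fell and 1 rose without wild-type replicate 2. Lncenc1 had 8.29 and 8.21 CPM in the mutant and 23.5 and 22.3 CPM in wild type (log2 change -1.47, SE 0.0577, adjusted p = 4.53e-10). The knockout had 8.35 and 8.54 CPM, from which the difference did not pass (log2 change -0.03, SE 0.0631, adjusted p = 0.705). Platr4 fell 2.40-fold (adjusted p = 2.47e-07).

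**Figure D3:**
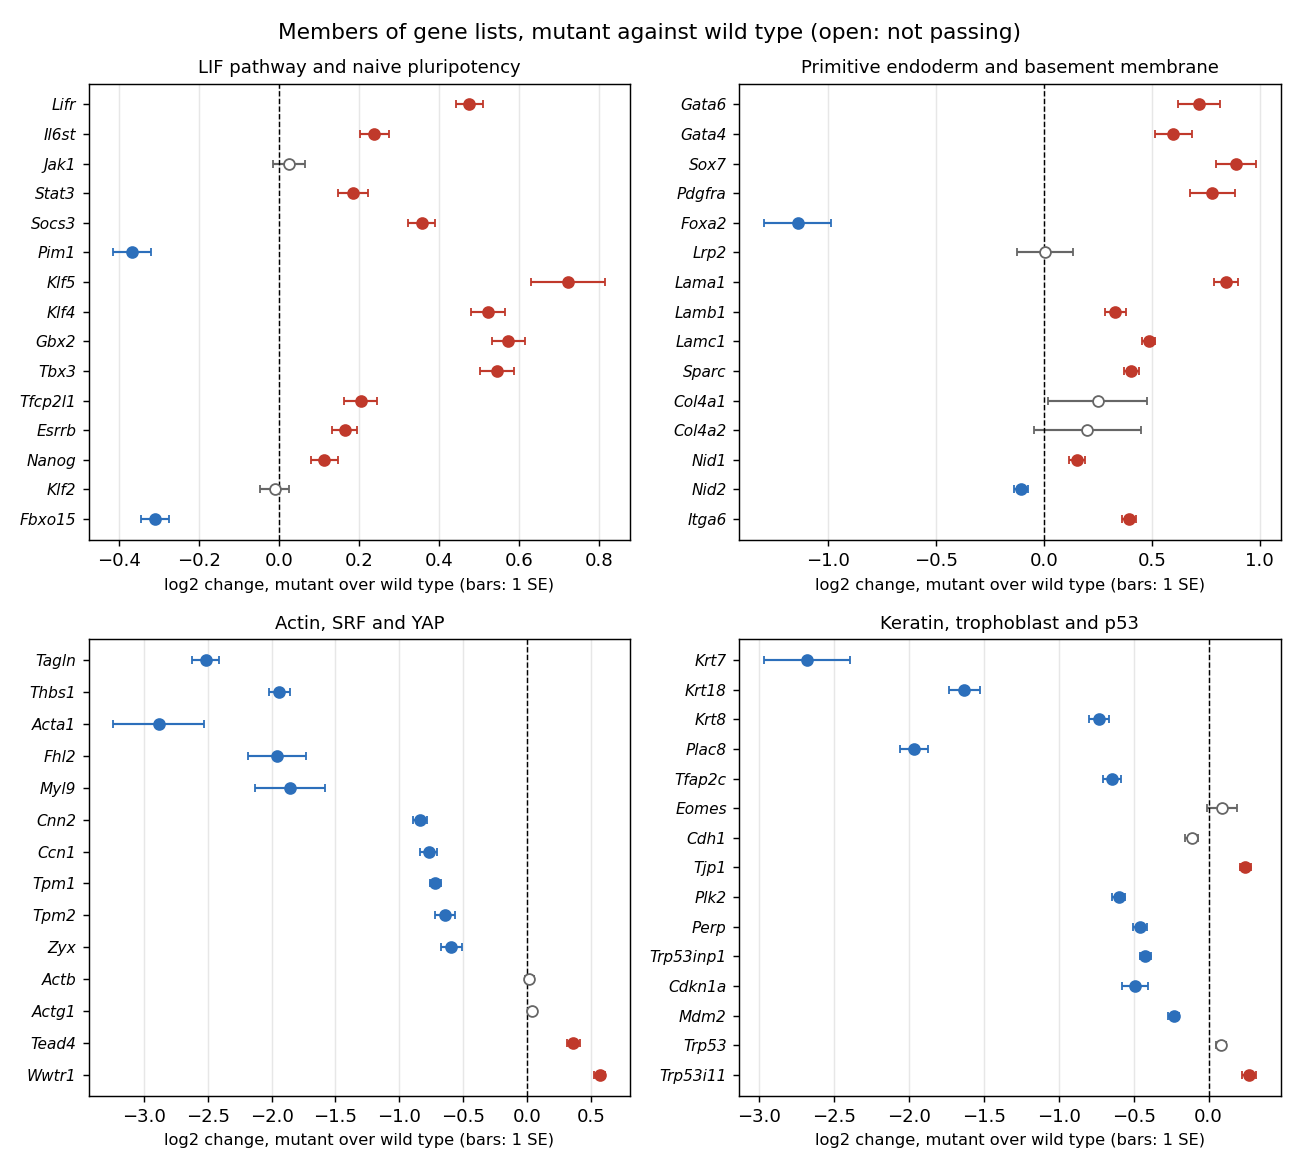
Log2 change in the mutant over wild type for members of gene lists, in 4 panels, with bars of 1 SE. Filled points passed at an adjusted p under 0.05 and open points did not; the dashed line marks no change. LIF and naive genes lie mostly to the right, and actin and keratin genes mostly to the left, with Wwtr1 at 0.57 and Pim1 at -0.37 against the direction of their lists.

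Several primitive endoderm and basement membrane genes rose in the mutant, though most members of both lists did not pass, and here the libraries of a group also differed. In the primitive endoderm list 8 of 25 genes rose (32%, against 8.02% of all genes) and 2 fell, or 1 without wild-type replicate 2 (median 0.40). The basement membrane list, which shares the laminin genes with it, had 9 of 26 higher (34.6%) and 3 lower (11.5%, against 7.5%), with a median of 0.08. None of its falls passed without wild-type replicate 1, without mutant replicate 2 or with DESeq2, and 1 passed without mutant replicate 1. Of the factors that set up the lineage, Gata6 had 6.06 and 6.68 CPM in the mutant and 3.56 and 4.19 CPM in wild type (adjusted p = 0.000101). Gata4 had 11.2 and 12.97 CPM in the mutant and 7.99 and 7.97 CPM in wild type (adjusted p = 0.000183), and Sox7 6.48 and 6.47 CPM in the mutant and 3.46 and 3.53 CPM in wild type (adjusted p = 8.72e-06). The receptor gene Pdgfra had 8.995 and 10.5 CPM in the mutant and 5.09 and 6.26 CPM in wild type (adjusted p = 0.000120). The 4 genes stood lower in the knockout than in the mutant: Gata6 averaged 0.386 CPM in the knockout and 2.20 CPM in overexpression, and the mutant was higher than both (adjusted p = 2.65e-11 and 1.21e-08). Gata4 and Pdgfra were likewise above the knockout (adjusted p = 5.78e-12 and 1.05e-10) and above overexpression (adjusted p = 1.67e-08 and 9.62e-08), whereas Sox7 was above the knockout (adjusted p = 5.93e-08) but did not pass against overexpression (adjusted p = 0.0709).

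The chains of laminin-111, the main laminin of embryonic basement membranes, are encoded by Lama1, Lamb1 and Lamc1. Lama1 had 249.8 and 289.7 CPM in the mutant and 151 and 149 CPM in wild type (log2 change 0.84, SE 0.0551, adjusted p = 9.97e-07). Lamc1 had 902 and 918 CPM in the mutant and 651 and 650.1 CPM in wild type (adjusted p = 1.01e-07), and Lamb1 173 and 194 CPM in the mutant and 141 and 151 CPM in wild type (adjusted p = 0.000268). All 3 chains were thus higher. Of the collagen IV chains, Col4a1 had 140.3 and 212 CPM in the mutant and 144 and 152 CPM in wild type and did not pass (adjusted p = 0.574); mutant replicate 2 alone lay clearly above wild type. Foxa2, an endoderm factor gene, went against the list, at 1.55 and 1.72 CPM in the mutant and 4.26 and 2.94 CPM in wild type (adjusted p = 0.000164). The 8 primitive endoderm markers summed to 61.7 and 75.1 CPM in the mutant and 42.1 and 50.4 CPM in wild type. The gap within each group was thus close to the gap between wild-type replicate 2 and mutant replicate 1. Without mutant replicate 2 the primitive endoderm list had 8 genes higher and 1 lower, while the counts without mutant replicate 1 were 11 and 2.

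In a list of targets of p53, the stress-responsive tumour suppressor, falls outnumbered rises. Of 40 tested 20 fell (50%, against 7.5% of all genes) and 1, Trp53i11, rose (median -0.16); 3 rose without mutant replicate 2 and 2 with DESeq2. Plk2, a kinase gene, had 39.6 and 38.1 CPM in the mutant and 60.2 and 57.5 CPM in wild type (log2 change -0.60, SE 0.0427, adjusted p = 2.26e-07). Trp53inp1, which encodes a stress protein that acts with p53, had 171 and 166 CPM in the mutant and 228 and 224 CPM in wild type (adjusted p = 9.97e-07). The cell cycle inhibitor Cdkn1a had 7.08 and 8.87 CPM in the mutant and 10.98 and 11.4 CPM in wild type (adjusted p = 0.00130), and Mdm2, which encodes the ligase that degrades p53, 130.2 and 126 CPM in the mutant and 149 and 152 CPM in wild type (adjusted p = 0.000243). Trp53 itself did not pass, at 227 and 228 CPM in the mutant and 219 and 211 CPM in wild type (adjusted p = 0.100). Set against the knockout, the mutant had 26 of the 40 higher and 2 lower, where 21.1% of all genes were higher and 24.4% lower. Set against overexpression it had 20 higher and 7 lower, where 25.2% of all genes were higher and 26.8% lower. Plk2, at 24.2 and 24.1 CPM in the knockout and 28.8 and 29.5 CPM in overexpression, was thus at an intermediate level in the mutant (adjusted p = 9.5e-09 and 1.41e-06).

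In the list of amino acid supply and the stress factor ATF4 16 of 31 rose (51.6%, against 8.02% of all genes) and 0 fell (median 0.12), and with library size as the only scaling 12 rose. The counts without wild-type replicate 1 were 11 higher and 1 lower. Atf4 had 412 and 398 CPM in the mutant and 311 and 331 CPM in wild type (adjusted p = 1.27e-05). Asns, asparagine synthetase, had 395 and 396 CPM in the mutant and 302 and 324 CPM in wild type (adjusted p = 1.48e-05), and Chac1, which degrades glutathione, 23.9 and 23.3 CPM in the mutant and 16.3 and 17.5 CPM in wild type (adjusted p = 2.89e-05). Hspa5, the chaperone that marks stress of the endoplasmic reticulum, did not pass, with a log2 change of 0.02 (adjusted p = 0.805). Over all genes 8.02% rose and 7.5% fell, but among genes over 100 CPM 20.5% rose and 4.10% fell. In the list of glycolysis and hypoxia 9 of 33 rose (27.3%) and 2 fell (6.06%). Its named rises include the kinases Pfkp (209 and 210.2 CPM in the mutant, 142 and 146 CPM in wild type, adjusted p = 7.02e-08) and Hk2 (629 and 617 CPM in the mutant, 473 and 491 CPM in wild type, adjusted p = 2.31e-06). Cholesterol and fatty acid synthesis had 7 of 30 higher (23.3%) and 0 lower, with fatty acid synthase, Fasn, up 1.28-fold (adjusted p = 5.51e-06). In the cell cycle list 13 of 49 rose (26.5%) and 4 fell (8.16%). Ccnd3, a D-type cyclin gene, rose 1.37-fold (adjusted p = 5.43e-07), and Cdk6, its kinase partner, fell 1.15-fold (adjusted p = 0.00294). Without mutant replicate 1 fewer members rose in these 3 lists: 5 of glycolysis and hypoxia, 4 of cholesterol synthesis and 8 of the cell cycle; for cholesterol synthesis, where 1 fell without wild-type replicate 2, the count was also 4 with either one of the wild-type libraries left out. Of the genes for DNA methylation and its removal 5 of 16 rose and 1 fell, or 2 with either one of the wild-type libraries left out or DESeq2; the rises include Tet2, which oxidises methylcytosine, at 342 and 318 CPM in the mutant and 225 and 221 CPM in wild type (adjusted p = 1.03e-07).

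**Figure D4:**
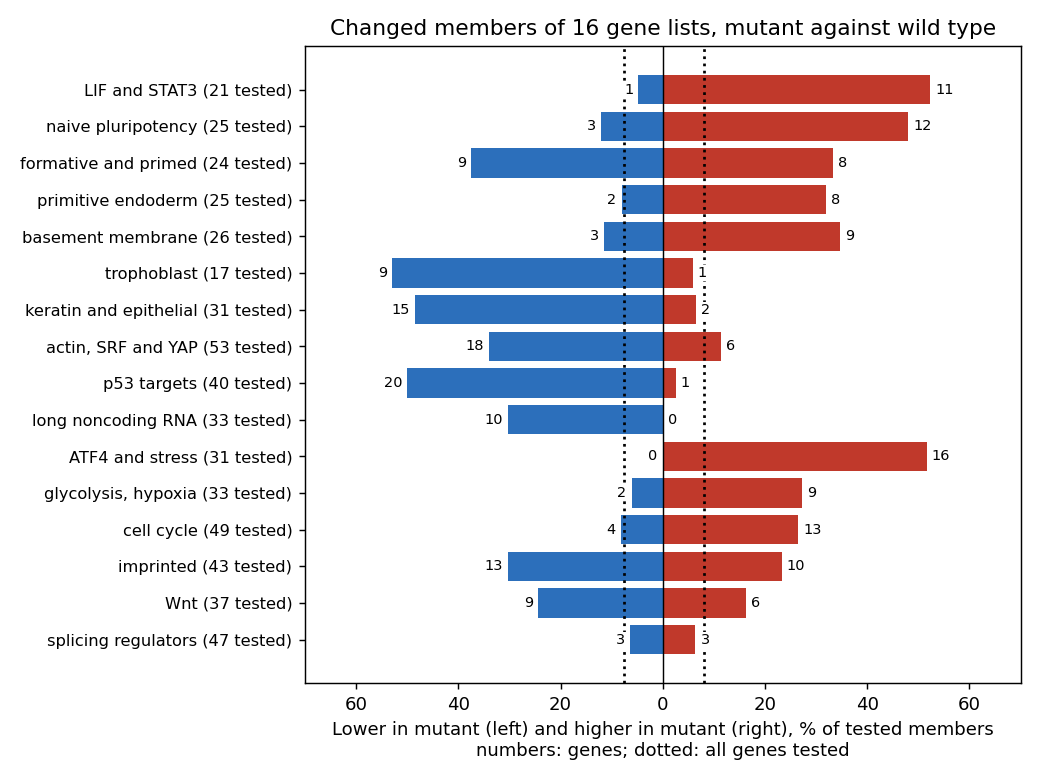
Share of the tested members of 16 gene lists that were higher (red, to the right) or lower (blue, to the left) in the mutant at an adjusted p under 0.05. The dotted lines mark the shares over all genes tested, 8.02% higher and 7.5% lower. The LIF list reaches 52.4% higher and the p53 list 50% lower.

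Signalling lists held changes in both directions. In the Wnt list 9 of 37 fell (24.3%, against 7.5% of all genes) and 6 rose (16.2%, against 8.02%), with a median of -0.19. These counts were 5 and 5 without wild-type replicate 1. Among ligand genes, Wnt7b had 1.499 and 1.36 CPM in the mutant and 3.15 and 2.93 CPM in wild type (adjusted p = 1.65e-05), and Wnt3 0.218 and 0.182 CPM in the mutant and 0.912 and 0.955 CPM in wild type (adjusted p = 1.99e-05), with Wnt4 lower by 1.76 on the log2 scale (adjusted p = 0.000746). Axin2, a common target that restrains the pathway, rose to 14.3 and 13.1 CPM in the mutant, against 8.88 and 7.77 CPM in wild type (adjusted p = 3.74e-05), and so did the inhibitor gene Notum, by 0.48 (adjusted p = 0.000263). In the FGF and ERK list 10 of 38 rose and 8 fell (8 and 5 without wild-type replicate 1). The ligand gene Fgf4 had 203 and 203 CPM in the mutant and 177 and 182 CPM in wild type (adjusted p = 0.00207) and the receptor gene Fgfr2 9.62 and 8.90 CPM in the mutant and 15.5 and 14.1 CPM in wild type (adjusted p = 1.05e-05). Dusp6, an ERK target that switches ERK off, rose 1.21-fold (adjusted p = 0.000264). Among TGF-beta family genes 4 of 35 rose (11.4%, against 8.02% of all genes) and 6 fell (17.1%, against 7.5%); without mutant replicate 2 the balance turned, with 7 higher and 5 lower. The ligand gene Bmp4 rose to 164 and 147 CPM in the mutant, against 103 and 95.2 CPM in wild type (adjusted p = 4.33e-07), and its target Id1 rose 1.255-fold (adjusted p = 3.5e-05). Lefty1, a Nodal target and inhibitor, fell to 60.04 and 69.2 CPM in the mutant, against 95.9 and 94.6 CPM in wild type (adjusted p = 4.59e-06).

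Of the lists closest to the genes of the title, that of splicing regulators had few calls. Of 47 splicing regulators 3 rose and 3 fell (6.38% each way, against 8.02% and 7.5% of all genes). The rises depended on single libraries: 0 passed without mutant replicate 1, 1 without wild-type replicate 1 and 9 without mutant replicate 2. Ptbp2, the polypyrimidine tract-binding protein of young neurons, fell to 43.6 and 39.2 CPM in the mutant, against 51.1 and 56.6 CPM in wild type (adjusted p = 0.000294), and Esrp1, an epithelial splicing factor, fell 1.21-fold (adjusted p = 0.00148). In a list of TRIM71 targets and microRNA pathway genes 6 of 28 fell (21.4%) and 2 rose. Without wild-type replicate 1 3 fell and 1 rose, and without mutant replicate 2 3 fell and 5 rose; without mutant replicate 1 the rises numbered 1. Among its named members Egr1, an early response factor gene known as a TRIM71 target, had 10.8 and 9.75 CPM in the mutant and 13.1 and 12.001 CPM in wild type (adjusted p = 0.0125), a call lost without wild-type replicate 1 or mutant replicate 2 (adjusted p = 0.135 and 0.0839). Hmga2, a chromatin protein gene and let-7 target, fell 1.21-fold (adjusted p = 0.00215). Ribosomal protein genes had 1 of 54 higher (1.85%) and 4 lower (7.41%), and nuclear genes of oxidative phosphorylation 2 of 45 higher (4.44%) and 0 lower. None of these shares exceeded that over all genes. Without mutant replicate 2 these counts were 4 higher and 18 lower for ribosomal proteins, and 6 higher and 5 lower for oxidative phosphorylation, where 1 rose without mutant replicate 1 or without wild-type replicate 2. No fall of a ribosomal protein gene passed without wild-type replicate 1 or without mutant replicate 1.

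Imprinted genes changed in 23 of 43 cases, 10 higher (23.3%, against 8.02% of all genes) and 13 lower (30.2%, against 7.5%). Without wild-type replicate 2, 8 were higher and 7 lower, and 6 were higher without mutant replicate 1. H19, the maternally expressed noncoding RNA, had 22.2 and 16.8 CPM in the mutant and 46.97 and 44.9 CPM in wild type (adjusted p = 0.0102, and 0.0723 and 0.0552 without wild-type replicate 1 and without wild-type replicate 2, where the call was lost); it stood at 418 and 419.8 CPM in the knockout and 8.53 and 6.71 CPM in overexpression, and it overlaps Mir675. Its neighbour Igf2 fell by 0.55 on the log2 scale (adjusted p = 0.000678). Sfmbt2, a Polycomb gene with a large cluster of microRNAs in an intron, had 38.3 and 38.5 CPM in the mutant and 62.6 and 56.8 CPM in wild type (adjusted p = 8.61e-07). At loci annotated as microRNA, 17 of 189 tested were lower and 0 higher (median -0.33), a share of 8.99% lower that is close to the 7.5% over all genes. Of the 39 inside Sfmbt2 10 were lower (25.6%, median -1.09), and of the 150 elsewhere 7 (4.67%, median -0.22). The filter needed about 10 counts in 2 libraries. Mir466m, inside Sfmbt2, had 0.0242 and 0.0121 CPM in the mutant and 0.152 and 0.119 CPM in wild type. Loci this low can pass through wild type alone, so part of their fall can be built in by the filter. The 17 became 9 without either one of the wild-type libraries and 4, with 1 higher, without mutant replicate 1. DESeq2 called 0 of the 59 it gave an adjusted p, with 15 of 189 at an unadjusted p under 0.05. These counts are low; whether the reads come from host transcripts was not tested, and they are no measure of mature microRNA. The RefSeq (GRCm38.p6) sequences available here cover 6 of the 17 loci. For those of the 6 with the highest counts, the mature sequence of 1 arm each is shown, to tell apart the microRNAs that they encode. The seed (bases 2 to 8) is in capitals.
mmu-miR-3070-5p: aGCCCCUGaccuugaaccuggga
mmu-miR-18b-5p: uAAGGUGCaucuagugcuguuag
mmu-miR-432: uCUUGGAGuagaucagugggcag
mmu-miR-300-3p: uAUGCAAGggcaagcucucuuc
mmu-miR-496a-3p: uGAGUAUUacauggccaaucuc
The seeds of these sequences all differ. Mir18b lies on chromosome X and the others in the imprinted Dlk1-Dio3 cluster of chromosome 12. Mir3070a had 1.26 and 1.31 CPM in the mutant and 1.76 and 2.04 CPM in wild type (adjusted p = 0.0231), and Mir18b 0.870 and 0.994 CPM in the mutant and 1.30 and 1.59 CPM in wild type (adjusted p = 0.0183). Both calls were lost without wild-type replicate 2 (adjusted p = 0.155 for Mir3070a and 0.152 for Mir18b) and without mutant replicate 1 (adjusted p = 0.0990 and 0.117). Rian, a long noncoding RNA of the same cluster, had 333 and 323 CPM in the mutant and 354 and 391.7 CPM in wild type (adjusted p = 0.0105), a call lost without wild-type replicate 2 or mutant replicate 2 (adjusted p = 0.138 and 0.0575). Overexpression was far lower, with 48.5 and 51.8 CPM (adjusted p of the difference from the mutant = 1.72e-14).

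Outside the lists, the zinc finger gene Zfp229 fell 3.76-fold, to 20.5 and 18.8 CPM in the mutant, against 72.7 and 75.4 CPM in wild type (SE 0.0473 on the log2 scale, adjusted p = 1.43e-12). It stood at 60.8 and 61.3 CPM in the knockout and 82.9 and 86.5 CPM in overexpression, and the mutant was below both (adjusted p = 1.99e-12 and 1.99e-13). Zfp951, a further zinc finger gene, singled out after its values were seen, had 0.181 and 0.206 CPM in the mutant and 6.36 and 7.02 CPM in wild type (adjusted p = 1.26e-10). It was also low in overexpression, at 0.301 and 0.345 CPM (adjusted p of the difference from the mutant = 0.0874), but not in the knockout, at 4.66 and 3.98 CPM (adjusted p = 1.04e-10). Itpr2, a calcium release channel gene, had 1.72 and 1.75 CPM in the mutant and 5.64 and 4.67 CPM in wild type (adjusted p = 1.85e-07), with 33.4 and 32.7 CPM in the knockout and 0.535 and 0.633 CPM in overexpression. Acsf3, which encodes a mitochondrial acyl-CoA synthetase, fell 2.77-fold (adjusted p = 3.1e-09), and Tfpi, an inhibitor of coagulation, 2.35-fold (adjusted p = 2.36e-10). Enpp2, which encodes the lipid-producing enzyme autotaxin, fell 3.21-fold (adjusted p = 1.52e-06).

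Among genes averaging at least 1 log2 CPM, the level limit of the naming rule, the highest named rises were about 2-fold; 20 of the 31 rises of 2-fold or more averaged under 1 CPM. Pof1b, which encodes an actin-binding protein of epithelia, had 7.496 and 6.29 CPM in the mutant and 2.99 and 2.93 CPM in wild type (adjusted p = 6.71e-07), with 19.4 and 18.97 CPM in the knockout and 0.747 and 0.668 CPM in overexpression. Tbx20, a T-box factor gene of the heart, had 16.2 and 16.3 CPM in the mutant and 8.17 and 7.52 CPM in wild type (adjusted p = 2.6e-08). Nkx6-3, a homeobox gene of the stomach, had 48.9 and 46.5 CPM in the mutant and 23.4 and 24.3 CPM in wild type (adjusted p = 1.16e-09). For these 3 genes both mutant libraries lay above both wild-type libraries, which the naming rule required. Sept1, a septin gene, rose 2.05-fold (adjusted p = 7.93e-10) and Irak3, an inhibitor of Toll-like receptor signalling, 1.96-fold (adjusted p = 7.32e-05). Alpk3, a kinase gene of heart muscle, rose 1.87-fold (adjusted p = 1.39e-07). Nynrin, at a higher level, had 163 and 162 CPM in the mutant and 88.2 and 83.7 CPM in wild type (adjusted p = 9.69e-10). Atp2a3, which encodes a calcium pump of the endoplasmic reticulum, had 43.3 and 44.2 CPM in the mutant and 24.2 and 23.99 CPM in wild type (adjusted p = 4.04e-09). Islr2 and Soga3, which also ranked among the highest, share exon sequence on their strand with another annotated gene (Islr and Gm49353), so their reads may be split or shared.

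The other lines differed from the mutant in more genes than wild type did. Against the knockout 8217 genes (45.5%) changed, 3813 (21.1%) higher and 4404 (24.4%) lower in the mutant, and against overexpression 9384 (52%), 4552 (25.2%) higher and 4832 (26.8%) lower. All comparisons share the mutant libraries. The primitive endoderm list followed the same order against both lines: 17 of 25 were higher and 3 lower in the mutant than in the knockout, and 17 higher and 2 lower than in overexpression. Against the knockout the lowest named genes among those also called against wild type were Slc4a5, a bicarbonate transporter gene, at 0.750 and 0.837 CPM in the mutant and 19.6 and 18.7 CPM in the knockout (adjusted p = 1.01e-13), and H19. Nt5e, which encodes the ectonucleotidase CD73, was higher, at 9.72 and 9.60 CPM in the mutant and 2.08 and 2.06 CPM in the knockout (adjusted p = 1.97e-11). Dnah8, a dynein chain gene, was above every other group, at 103 and 102 CPM in the mutant, 30.96 and 30.2 CPM in the knockout, 37.98 and 38.3 CPM in overexpression and 59.3 and 63.8 CPM in wild type (adjusted p = 2.93e-13, 2.43e-12 and 1.93e-08 in that order). Against overexpression Klhl13, a ubiquitin ligase adaptor gene, was higher, at 24.1 and 24.4 CPM in the mutant and 3.52 and 3.85 CPM in overexpression (adjusted p = 1.99e-13). B3gnt3, a glycosyltransferase gene, was lower, at 3.70 and 3.67 CPM in the mutant and 25.99 and 24.8 CPM in overexpression (adjusted p = 1.99e-13), although it was higher in the mutant than in wild type, with 1.98 and 2.03 CPM (adjusted p = 1.1e-05).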

How the data were processed

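RNA was measured in 8 libraries of mouse embryonic stem cells, 2 per group, made with a stranded total RNA kit and read as paired ends of 75 nt, per the labels' protocols. The deposited values are raw read counts per gene over 43346 genes, with no normalization. The authors aligned reads with STAR 2.5.0 to mm10, per the submitters' processing notes; the annotation release, the counter and its strand setting are not named there. Gene IDs were matched to GENCODE vM21 without their version suffix (42462 matched, 23106 of them with the suffix too, and 884 did not match).

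From the counts, genes were filtered with filterByExpr (minimum count 10, minimum total 15), which left 18055, scaled by TMM, and tested with edgeR's quasi-likelihood test (edgeR 4.0.16, limma 3.58.1, R 4.3.3) on all 8 libraries, with 1 coefficient per group, no covariate and Benjamini-Hochberg adjustment over all genes tested. A gene was called at an adjusted p under 0.05. The fit has 4 residual degrees of freedom, and the biological coefficient of variation between libraries of a group was 4.17%. With 2 against 2 libraries, a single value tested alone could not go below p = 0.333 in an exact permutation test, so the fit across all genes was used. CPM per library, log2 changes from the fit and gene list counts were computed with R and Python 3.11.15. A prior count of 2 entered the log2 CPM behind the correlations between libraries, not the log2 changes. The steps were tested on simulated data. Totals were 75056306 to 86508533 counts a library; intervals and floors cover counting error only. No pair of libraries of a group agreed within sampling noise (chi-square per degree of freedom 6.01 or more). By this measure wild type (28.0) and the mutant (22.2) varied more than overexpression (9.33) and the knockout (6.01). The fit takes 1 spread per gene from all 8 libraries, so adjusted p for the mutant against wild type may be too small. By how much was not tested, since the fit of the 4 libraries alone also has fewer residual degrees of freedom. Each library counted as 1 sample, though the chi-square does not show that libraries came from separate cultures.

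The genes set against each other, the 33 gene lists and the alternatives were chosen with earlier results of these data known. Genes were named by rule: the 15 highest and 15 lowest changes, the 10 smallest adjusted p and the 10 highest levels among called genes of at least 1 log2 CPM with groups that do not overlap, the genes next to Mbnl1, members of each list by size of change or level, and the 6 highest and 6 lowest changes against each other line. Cldn4, Cldn6, Cldn7, Dusp6, Esrrb, Fgf4, Il6st, Mdm2, Mir18b, Mir3070a, Nanog, Nes, Stat3, Tpm1 and Zfp951 fall outside it and were chosen after their values were seen. Alternatives were other scalings, other filters, only the 4 libraries compared, a replicate block, loci resembling ribosomal RNA left out, each library left out, DESeq2 1.42.0 and, added after the data were seen, edgeR's earlier (legacy) quasi-likelihood method.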

Additional observations from a re-analysis of the deposited data

How the results depend on the processing

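Of the 170 log2 changes of named genes, 153 were called, and 144 of these kept their call and direction in each of 17 alternatives that gave a value; 0 called values changed sign. Besides the losses given with the genes, Pou5f1 was not called with library size only (adjusted p = 0.0816), with genes of at least 1 mean CPM (0.0665), with the 4 libraries compared alone (0.167), with the replicate block (0.0714) or with the legacy method (0.0591). Nanog was not called with the 4 libraries alone (0.120) or the block (0.0521), and Rap2b not with the 4 libraries alone (0.0989) or DESeq2 (0.111). Mir18b was not called with the 4 libraries alone (0.0504) or DESeq2 (0.120), nor Mir3070a with DESeq2 (0.138). In the other direction, Cdh1 was called lower with library size only (0.0378), and Zfp951 lower than in overexpression with the legacy method (0.0370). Over the leave-one-out fits, 1768 to 3163 genes changed, 982 to 1804 were higher and 786 to 1359 lower, with the lowest counts without wild-type replicate 1 and the highest without mutant replicate 2, and 185 to 278 changed by 2-fold or more, 162 to 245 of them lower and 23 to 45 higher. With only the 4 libraries compared, 1887 genes changed, 964 higher and 923 lower, against 2802 in the fit of all 8 libraries. DESeq2 called 1408 higher and 882 lower, and 163 by 2-fold or more, 19 higher and 144 lower. Genes of at least 1 mean CPM held 87 changes of 2-fold or more, 8 higher and 79 lower, since fewer genes were tested. For the other differences the cause was not tested. The share of calls that were higher was 51.7%, and 44.2% with library size only and 61.5% with DESeq2. Counts against the knockout and against overexpression stayed within 1.5 times of those reported in each alternative.

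Libraries with the same replicate number did not visibly deviate together (correlations of -0.0343 to 0.0600 between groups). A weak shared effect could go unseen here, so this does not show that the samples are unpaired. The replicate block gave 2615 changed genes, 1341 higher and 1274 lower. With 2 libraries a group, differences between clones, cultures and the altered sequence cannot be told apart. Low counts limit the genes under 1 CPM, where most falls of 2-fold or more lie. Some of these genes can have passed the filter only through the group where they are high.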

Other observations

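Over all genes tested 8.02% were higher and 7.5% lower, the shares to set beside each count of this section. Germline genes that depend on DNA methylation held 6 falls and 0 rises among 28 tested (median -0.14). Prdm1, a factor gene of primordial germ cells, had 10.8 and 10.5 CPM in the mutant and 16.1 and 15.1 CPM in wild type (adjusted p = 1.33e-05). Tdrd12, a gene of the piRNA pathway, had 23.8 and 24.4 CPM in the mutant and 30.6 and 30.4 CPM in wild type (adjusted p = 0.000122). In a list of 26 calcium and ion transport genes 6 were higher and 5 lower, and 3 and 4 without wild-type replicate 1, as without wild-type replicate 2 or mutant replicate 1. Atp1b1, a sodium pump subunit gene, rose to 158 and 155 CPM in the mutant, against 125 and 120.1 CPM in wild type (adjusted p = 4.92e-06). Kcnk1, a potassium channel gene, fell to 15.6 and 15.1 CPM in the mutant, against 23.3 and 20.9 CPM in wild type (adjusted p = 1.48e-05).

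Of 16 fibroblast genes 2 were higher and 5 lower; 3 were lower without wild-type replicate 1, and 1 was higher without wild-type replicate 2, as without mutant replicate 2. Vim, the gene of vimentin, had 87.9 and 85.0 CPM in the mutant and 65.5 and 61.2 CPM in wild type (adjusted p = 1.2e-05), whereas Col5a2, a fibrillar collagen gene, had 0.472 and 0.412 CPM in the mutant and 2.496 and 2.96 CPM in wild type (adjusted p = 9.73e-08). Of 12 blood and endothelial genes 3 were lower and 0 higher; Pecam1, an adhesion gene of endothelium that embryonic stem cells also express, had 28.7 and 26.6 CPM in the mutant and 35.8 and 34.1 CPM in wild type (adjusted p = 0.00107). Of 18 genes of mesoderm and definitive endoderm, Tbx20 was higher and Foxa2 lower, with 2 lower without mutant replicate 2. Replication-dependent histone genes had 9 of 54 higher and 2 lower, but 7 and 13 without mutant replicate 2 and 3 and 1 without wild-type replicate 2; their near-identical copies make single members uncertain. Of 10 genes encoded in mitochondrial DNA 1 was lower, 3 without mutant replicate 1, and none was lower when any other mutant or wild-type library was left out; 1 was higher without wild-type replicate 2. The 1 tested gene of the 2-cell-like state was not called. Of 2 sex chromosome markers 0 were called, but 2 were lower without mutant replicate 1 and 1 without wild-type replicate 2.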
